A study of Mus musculus with 6 samples.

Results

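Chat, Slc18a3, Slc5a7, Ache, Isl1, Isl2, Mnx1, Prph, Calca and Calcb are cholinergic and motor neuron genes, and their levels were followed gene by gene through samples of neurons from the preBötzinger Complex (preBötC), the site in the brainstem where the rhythm of breathing arises. They are 10 of the 49568 gene names with a deposited value. They were chosen by name, with the values of non-Dbx1 replicate 3 already known to stand above those of the other 5 samples in several of them, so the contrast of that sample with the rest is given below as a description and without a test.

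Each of the 6 samples pooled 15 neurons drawn by micropipette from a transverse slice of 1 mouse at postnatal day 2, and each sample came from a different mouse. All mice carried Dbx1CreERT2 and Rosa26tdTomato, and their dams received tamoxifen during gestation, so that cells descending from progenitors that express Dbx1 became fluorescent. The 3 Dbx1 samples held fluorescent neurons, and the 3 non-Dbx1 samples held neuronal somata in which tdTomato was not seen, which defines that group by the absence of a signal and not by a cell type. Recombination depends on the single window of tamoxifen exposure, so a non-Dbx1 neuron is one that was not labelled in it.

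Acetylcholine is made by choline acetyltransferase (Chat), packed into vesicles by the vesicular acetylcholine transporter (Slc18a3), split after release by acetylcholinesterase (Ache) and rebuilt from choline that the high-affinity choline transporter (Slc5a7) returns to the terminal. Motor neurons of the brainstem and spinal cord are the best known cholinergic neurons there. Islet factors (Isl1, Isl2) and Mnx1 direct the identity of many of them, and they commonly contain the intermediate filament peripherin (Prph) and calcitonin gene-related peptide (Calca, Calcb). The nucleus ambiguus, which holds motor neurons of the larynx and pharynx, borders the preBötC.

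Between 6464675 and 9432958 reads per sample lay on genes, as recovered from the steps between deposited values, and non-Dbx1 replicate 3 was the deepest sample. Values are RPKM, reads on a gene scaled to its exon length and to the reads on genes in the sample. A level of 3 reads, taken as the floor of detection, was an RPKM of 0.113 to 0.165 for Chat. Floors allow for counting error alone, because amplified cDNA yields many reads from 1 molecule. Genes above 0 numbered 16536 in non-Dbx1 replicate 3, the fewest of any sample, and up to 19143 in the others. The labels call the cells of every sample interneurons. Non-Dbx1 replicate 3 held the highest levels of Isl1, Chat, Slc18a3 and Prph, although Chat had reads in every sample. Non-Dbx1 replicate 2 held high levels of the catecholamine enzymes Th and Dbh. Whether either sample held cells other than interneurons was not tested, so results that rest on either are given with their single values. The 6 general neuron markers summed to an RPKM of 1380 in non-Dbx1 replicate 3 and to between 993 and 1708 in all samples. In pools of cells, fewer cells of a type and less RNA per cell cannot be told apart.

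Upstream sequences are shown for the 5 genes whose highest value was in non-Dbx1 replicate 3, so that they can be read beside that shared pattern. The 250 bases before each RefSeq start are given 5′ to 3′ on the strand of the gene (build GRCm38.p6). They are chr14:32465910-32466159 (minus strand) for Chat, chr14:32464851-32465100 (minus strand) for Slc18a3, chr13:116309689-116309938 (minus strand) for Isl1, chr15:99054924-99055173 (plus strand) for Prph and chr7:114636358-114636607 (minus strand) for Calca. Capitals mark matches, on either strand, to CATTAG (a site bound by Isl1), TAATTA (a homeodomain core), CAGCTG (an E-box), TGACG (the core of a cAMP response element), CCAAT and TATAAA.
Chat: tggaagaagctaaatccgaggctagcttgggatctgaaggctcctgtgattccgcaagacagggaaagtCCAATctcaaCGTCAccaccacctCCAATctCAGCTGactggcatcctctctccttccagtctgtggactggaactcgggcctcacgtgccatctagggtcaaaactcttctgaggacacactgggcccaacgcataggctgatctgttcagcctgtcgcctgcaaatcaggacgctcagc
Slc18a3: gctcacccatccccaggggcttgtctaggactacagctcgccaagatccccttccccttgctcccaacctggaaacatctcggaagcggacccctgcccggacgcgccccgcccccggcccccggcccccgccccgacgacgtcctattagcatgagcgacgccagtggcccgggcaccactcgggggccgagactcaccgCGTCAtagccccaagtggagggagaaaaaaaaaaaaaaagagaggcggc
Isl1: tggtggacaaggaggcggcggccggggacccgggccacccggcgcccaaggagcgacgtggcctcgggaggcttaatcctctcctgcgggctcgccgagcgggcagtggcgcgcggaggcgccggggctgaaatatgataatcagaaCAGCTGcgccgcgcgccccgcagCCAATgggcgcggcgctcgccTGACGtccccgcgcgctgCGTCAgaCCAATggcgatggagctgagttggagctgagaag
Prph: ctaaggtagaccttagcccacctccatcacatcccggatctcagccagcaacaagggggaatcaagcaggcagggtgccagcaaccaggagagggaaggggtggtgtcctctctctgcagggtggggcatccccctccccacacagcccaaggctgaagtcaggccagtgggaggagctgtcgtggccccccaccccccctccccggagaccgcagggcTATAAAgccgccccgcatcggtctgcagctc
Calca: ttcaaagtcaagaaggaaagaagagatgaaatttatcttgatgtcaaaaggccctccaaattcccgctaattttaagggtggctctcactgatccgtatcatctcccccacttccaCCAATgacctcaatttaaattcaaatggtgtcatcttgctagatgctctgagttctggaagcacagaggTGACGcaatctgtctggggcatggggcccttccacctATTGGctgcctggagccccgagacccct
None of the 5 stretches held CATTAG or TAATTA, which 6.36% and 4.84% of 32851 mouse promoter windows held. CAGCTG was present upstream of Chat and Isl1 and in 13% of windows. TGACG was present upstream of Chat, Slc18a3, Isl1 and Calca and in 17.8% of windows. The pair of matches to CCAAT in each of Chat, Isl1 and Calca belongs to a motif found in 33.8% of windows, and the TATAAA of Prph to one found in 12.4%. No marked matches overlap in these 5 stretches. A match is a string of letters and not a measured site.

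The genes of acetylcholine synthesis and vesicle loading were highest in non-Dbx1 replicate 3 and next highest in non-Dbx1 replicate 2. Chat, the synthetic enzyme, lies on chr14:32408203-32465989 (minus strand; this and the gene positions that follow are from GENCODE vM21 on GRCm38). Its RPKM was 0.0448, 0.945 and 0.0511 in Dbx1 replicates 1, 2 and 3 and 0.0550, 1.83 and 4.0 in non-Dbx1 replicates 1, 2 and 3. Behind those values stood 1, 20 and 1 reads across Dbx1 replicates 1 to 3 and 1, 44 and 106 reads across non-Dbx1 replicates 1 to 3. The 3 values of a single read were under the floor, Dbx1 replicate 2 reached a middle level, and the groups overlapped. Non-Dbx1 replicate 3 contributed 57.7% of the RPKM summed over the samples and was 2.19 times the next highest.

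Slc18a3, which fills vesicles with acetylcholine, had the same pair of samples on top, at a higher level. Its RPKM was 1.15, 0.385 and 0 across Dbx1 replicates 1 to 3 and 0.192, 7.60 and 37.0 across non-Dbx1 replicates 1 to 3, from 22, 7 and 0 reads and from 3, 157 and 843 reads. Non-Dbx1 replicate 3 carried 79.9% of the sum and was 4.87 times replicate 2, while non-Dbx1 replicate 1 lay at the floor and below both detected Dbx1 samples.

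Slc18a3 is a gene of 1 exon that lies inside an intron of Chat, an arrangement known as the cholinergic gene locus. In the GENCODE annotation it occupies chr14:32462438-32464850 (minus strand), which is 1139 to 3551 bases after the start of Chat on the same strand. The nearest later Chat exon begins 3947 bases after that start, and no exon is shared between the genes. Reads of either gene were therefore counted on separate exons. Chat has 8 annotated transcripts, and the length behind its deposited values was not matched by the annotation used here. Its level is therefore less certain than that of Slc18a3, whose length matched. The lengths behind Slc5a7, Isl1, Isl2 and Prph were not matched either.

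**Figure D1:**
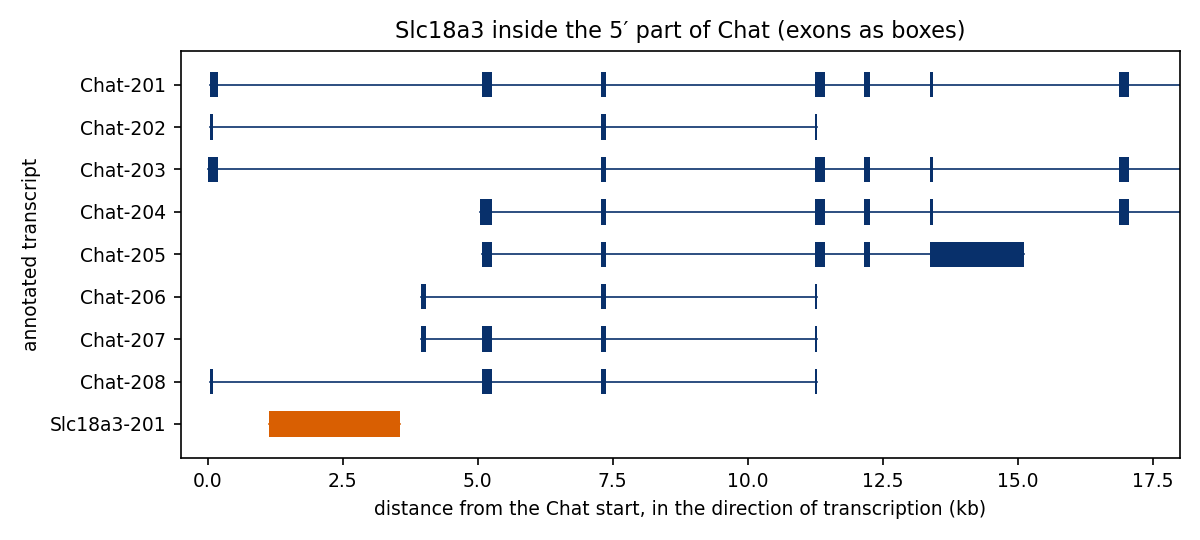
Annotated exons (boxes) and introns (lines) of the 8 Chat transcripts and of Slc18a3 against the distance from the Chat start in kb, in the direction of transcription, with the later exons of Chat beyond the right edge. Slc18a3 sits between the first Chat exons and the exon that begins 3947 bases after the start.

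Slc5a7 and Ache did not have non-Dbx1 replicate 3 on top. Slc5a7, on chr17:54273590-54299034 (minus strand), returns choline to the terminal. Its RPKM was 0.146, 0.847 and 8.52 across Dbx1 replicates 1 to 3 and 2.75, 10.9 and 7.91 across non-Dbx1 replicates 1 to 3, from 6, 33 and 307 reads and from 92, 484 and 386 reads. The highest sample was non-Dbx1 replicate 2, and Dbx1 replicate 3, which had no read of Slc18a3 and 1 of Chat, was above non-Dbx1 replicate 3. Transporter and synthetic enzyme thus came apart in Dbx1 replicate 3.

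Ache, on chr5:137287519-137294466 (plus strand), had the highest deposited RPKM of the 10 genes in every sample except non-Dbx1 replicate 3, where Prph was higher. That order rests on the exon lengths behind the deposited values. Its RPKM was 80.4, 117 and 33.8 across Dbx1 replicates 1 to 3 and 44.3, 58.1 and 50.5 across non-Dbx1 replicates 1 to 3, from 2160 to 8104 reads. The largest and the smallest value were both in Dbx1 samples, so the non-Dbx1 samples lay within the Dbx1 range. Its exons share a stretch of 98 bases with the lincRNA Gm42456 on the opposite strand, and reads there cannot be assigned, since strand was not used in counting. The enzyme also occurs in neurons that respond to acetylcholine without making it.

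Of the motor neuron transcription factors, Isl1 was detected in non-Dbx1 replicate 3 alone. Isl1, on chr13:116298281-116309689 (minus strand), had an RPKM of 13.3 from 668 reads in that sample and 0 in the other 5. A count of 0 allowed an RPKM of up to 0.0873 in any of them, so the level was at least 153-fold higher in non-Dbx1 replicate 3 than the floor of each other sample. The reads and the floor of Isl1 rest on a recovered length that the annotation did not match. Isl1 had the largest difference of any protein-coding gene between that sample and the highest of the others, and ranked 4 over all gene names.

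Isl2, the close relative of Isl1, and Mnx1, another homeobox gene of motor neurons, were near or under the floor throughout. Isl2 (chr9:55538672-55546180, plus strand) had an RPKM of 0.11 in Dbx1 replicate 3 and 0.0890 in non-Dbx1 replicate 1, from 4 and 3 reads, and 0 elsewhere. Mnx1 (chr5:29473034-29478470, minus strand) had 4 reads in non-Dbx1 replicate 1, an RPKM of 0.145, and 0 elsewhere. Both were listed at 0 in the sample that held Isl1, where the floors of 3 reads were their lowest, at 0.0610 and 0.0746.

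Prph, a neurofilament-like protein of motor and sensory axons, ranged from 0 to its highest level within the non-Dbx1 group. Its RPKM was 9.09, 3.38 and 5.53 across Dbx1 replicates 1 to 3 and 0, 7.47 and 95 across non-Dbx1 replicates 1 to 3, from 156, 55 and 83 reads and from 0, 138 and 1934 reads. The lowest and the highest sample were both non-Dbx1, and the Dbx1 values lay between them. Non-Dbx1 replicate 3 held 78.9% of the sum and was 10.5 times the next highest, which was Dbx1 replicate 1. The gene lies on chr15:99055174-99058978 (plus strand).

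Calca, which encodes calcitonin and alpha calcitonin gene-related peptide, was detected in every sample. Its RPKM was 1.66, 2.74 and 4.44 across Dbx1 replicates 1 to 3 and 2.26, 4.08 and 9.93 across non-Dbx1 replicates 1 to 3, from 46, 72 and 108 reads and from 51, 122 and 327 reads. Non-Dbx1 replicate 3 was 2.23 times the next sample, Dbx1 replicate 3, and held 39.5% of the sum, a smaller share than for Chat, Slc18a3, Isl1 or Prph. Calcb, the gene of the beta peptide, lies 82.3 kb from Calca on chr7 on the opposite strand. Its RPKM was 0.617 in Dbx1 replicate 1 and 0.190 in non-Dbx1 replicate 1, from 8 and 2 reads, and it was listed at 0 in the other samples, non-Dbx1 replicate 3 included.

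**Figure D2:**
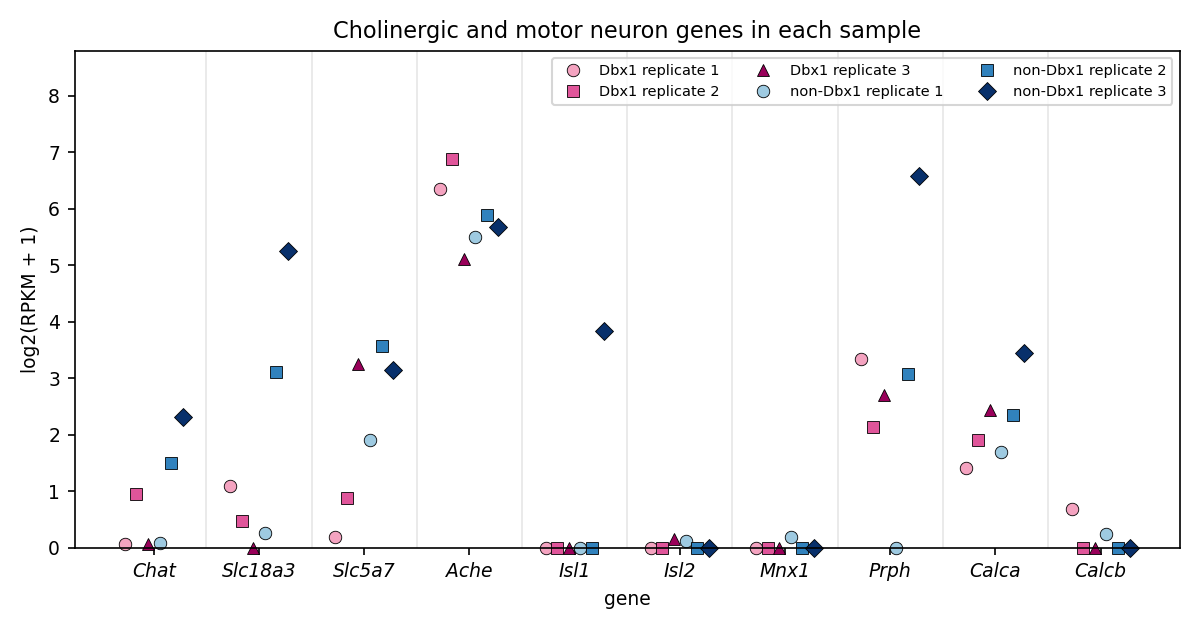
Level of each gene as log2(RPKM + 1) in each sample, 1 point per sample (pink, Dbx1; blue, non-Dbx1). Non-Dbx1 replicate 3 (dark diamond) is the highest point for Chat, Slc18a3, Isl1, Prph and Calca and not for Slc5a7, Ache, Isl2, Mnx1 or Calcb.

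The highest sample was thus non-Dbx1 replicate 3 for 5 of the 10 genes, and it was the highest sample for 12.9% of the 27067 genes above 0 in any sample. For 3 of them, Slc18a3, Isl1 and Prph, the difference from the next sample was at least 2 on the log2(RPKM + 1) scale, as it was for 0.506% of those genes. The list was chosen for this pattern, so nothing is read from either comparison. Each of the other 5 samples was the highest for 1 gene: non-Dbx1 replicate 2 for Slc5a7, non-Dbx1 replicate 1 for Mnx1, Dbx1 replicate 2 for Ache, Dbx1 replicate 3 for Isl2 and Dbx1 replicate 1 for Calcb. The same samples were the highest for 16.4%, 21.2%, 18.7%, 16.1% and 14.7% of the genes above 0, in that order.

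**Figure D3:**
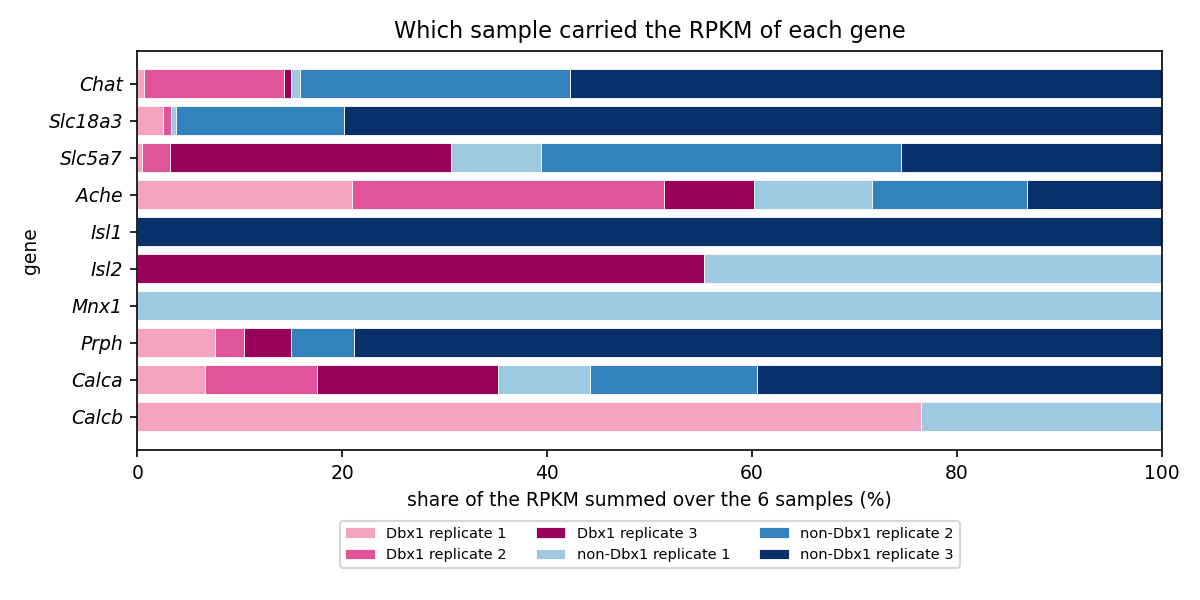
Share (%) of the RPKM summed over the 6 samples that each sample contributed, by gene, with each bar adding to 100%. Non-Dbx1 replicate 3 (darkest blue) takes 79.9% for Slc18a3, 78.9% for Prph and 57.7% for Chat but 25.4% for Slc5a7 and 13.1% for Ache.

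Dbx1 and non-Dbx1 samples were then compared, to ask whether the cholinergic and motor neuron genes separate the groups. The value of non-Dbx1 replicate 3 helped to choose the genes and enters this comparison, so it is not independent of the choice, and each difference is also given without that sample. L2FC is the Dbx1 mean minus the non-Dbx1 mean of log2(RPKM + 1), tested with limma over 17614 genes above 0 in at least 3 samples. Chat, Slc18a3, Slc5a7, Ache, Prph and Calca passed that filter, and Isl1, Isl2, Mnx1 and Calcb did not. None of the 6 tested genes passed an FDR of 0.1 in limma, against 0.00568% of all genes tested, and none had an unadjusted p under 0.05, against 5.2% of all genes tested. With voom on recovered reads, none of the 6 passed either level, against 0% of 13981 genes at an FDR of 0.1 and 5.27% at an unadjusted p under 0.05. In none of the 10 genes did the groups separate without overlap, against 6.89% of the genes above 0 in any sample and 10.6% of the genes tested.

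The most negative L2FC was that of Slc18a3, at -2.35 ± 1.14 (standard error, limma FDR = 0.912), and without non-Dbx1 replicate 3 it was -1.16. Without non-Dbx1 replicate 1, the sample at the floor, it was -3.65 with an unadjusted limma p of 0.00198 and an FDR of 0.635. That p was 0.072 with all samples and 0.209 without non-Dbx1 replicate 3. Non-Dbx1 replicate 1 is singled out here by its low value, so nothing is read from the smaller p. Chat had an L2FC of -0.93 ± 0.603 (limma FDR = 0.936), and -0.42 without non-Dbx1 replicate 3. Without non-Dbx1 replicate 1 it was -1.55, with an unadjusted limma p of 0.0201 and an FDR of 0.803. For Chat, too, nothing is read from that p, which was 0.158 with all samples and 0.42 without non-Dbx1 replicate 3. Both genes of the locus had a lower Dbx1 mean also without non-Dbx1 replicate 3, and neither difference passed the test in limma with all samples. Leaving out that sample leaves non-Dbx1 values of 0.192 and 7.60 for Slc18a3 and 0.0550 and 1.83 for Chat. Non-Dbx1 replicate 1 lay below the Dbx1 mean RPKM of both, 0.511 and 0.347, so the remaining difference rests on non-Dbx1 replicate 2 alone.

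Slc5a7 had an L2FC of -1.43 ± 0.866 (limma FDR = 0.936), and -1.30 without non-Dbx1 replicate 3. It was -2.34 without Dbx1 replicate 3, with an unadjusted limma p of 0.0141 and an FDR of 0.788, and -0.81 without Dbx1 replicate 1. The unadjusted limma p of Slc5a7 was 0.134 with all samples and 0.374 without Dbx1 replicate 1. Ache had the only positive L2FC, 0.43 ± 0.418 (limma FDR = 0.951), which was 0.04 without Dbx1 replicate 2. It was 0.93 without Dbx1 replicate 3, with an unadjusted limma p of 0.0107 and an FDR of 0.769. The unadjusted limma p of Ache was 0.335 with all samples and 0.914 without Dbx1 replicate 2. The samples left out for Slc5a7 and Ache are named because of their values, so nothing is read from the smaller p-values. The size of both differences thus rested on which Dbx1 samples were included.

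Prph changed sign with 1 sample. Its L2FC was -0.50 ± 1.38 (limma FDR = 0.982) with all samples and 1.18 without non-Dbx1 replicate 3, which leaves the non-Dbx1 values of 0 and 7.47. Calca had an L2FC of -0.58 ± 0.620 (limma FDR = 0.956), and -0.11 without non-Dbx1 replicate 3. The median L2FC of the 6 tested genes was -0.76 with all samples and -0.27 without non-Dbx1 replicate 3, beside 0.01 over all genes tested in both cases. Where the filter was lowered to genes above 0 in at least 1 sample, Isl1 had an L2FC of -1.28 (limma FDR = 0.784), which stands for 1 sample of 6.

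**Figure D4:**
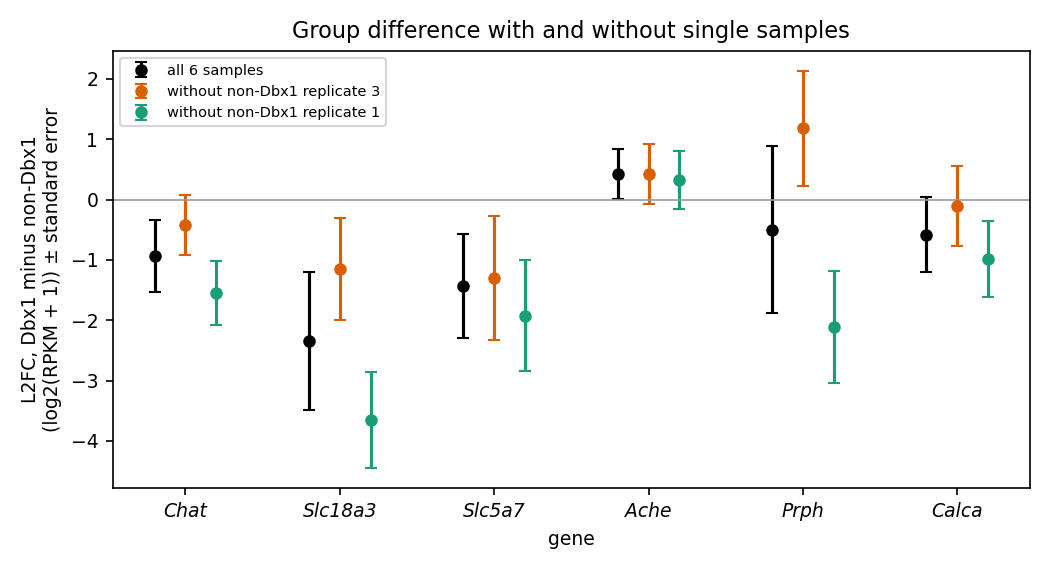
L2FC (Dbx1 minus non-Dbx1, log2(RPKM + 1)) with its standard error for the 6 tested genes, with all samples (black), without non-Dbx1 replicate 3 (orange) and without non-Dbx1 replicate 1 (green). Prph moves from -0.50 to 1.18 without replicate 3, while Ache is at 0.43, 0.42 and 0.33.

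Other transcription factors of motor neurons set the 2 non-Dbx1 samples with the most Chat apart from each other. All 14 listed factors were above 0 in some sample, 9 could be tested, and 0 passed an FDR of 0.1 in limma, 3 with a positive and 6 with a negative L2FC. Phox2a, a homeobox gene of noradrenergic and some cranial motor neurons, was at an RPKM of 19.2 in non-Dbx1 replicate 2, from 366 reads, and at 0 in all others, non-Dbx1 replicate 3 included. Tbx2 had an RPKM of 13.7 in non-Dbx1 replicate 3, 5.80 in non-Dbx1 replicate 1, 2.01 in Dbx1 replicate 1 and 0 in the other 3 samples, and Tbx3 was highest in the same sample at 0.587. Lhx3 and Lhx4, factors of spinal motor neurons, had an RPKM of 0.397 and 0.576 in non-Dbx1 replicate 2 and were at 0 in non-Dbx1 replicate 3. Tbx20, a gene of branchial and visceral motor neurons, had 31 reads in Dbx1 replicate 1 and 1 in non-Dbx1 replicate 3. Nkx6-1, a factor of ventral progenitors and some of their neurons, was highest in Dbx1 replicate 3, at 23.1, followed by 12.3 in non-Dbx1 replicate 3.

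The listed catecholamine markers were high beside Chat and Slc18a3 in non-Dbx1 replicate 2, and most of them were at 0 in replicate 3. All 6 markers of catecholaminergic neurons were highest in non-Dbx1 replicate 2, where they summed to an RPKM of 866, against 4.99 to 39.9 in the other 5 samples. Th, the first enzyme of catecholamine synthesis, was at 114 there, and Dbh, which makes noradrenaline, at 339. In non-Dbx1 replicate 3, Th, Dbh, Ddc and Slc6a2 were at 0 and the list summed to 16.6, from Slc18a2 at 7.25 and Pnmt at 9.40. The dopamine transporter Slc6a3, which was not on the list, was above 0 only in non-Dbx1 replicate 3, at 5.64 from 23 reads. The 2 samples with the most Chat and Slc18a3 therefore differed in the company of those genes, with Phox2a, Th and Dbh in replicate 2 and Isl1 and Prph in replicate 3. The part of catecholaminergic neurons in the levels of Chat and Slc18a3 in replicate 2 was not tested.

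**Figure D5:**
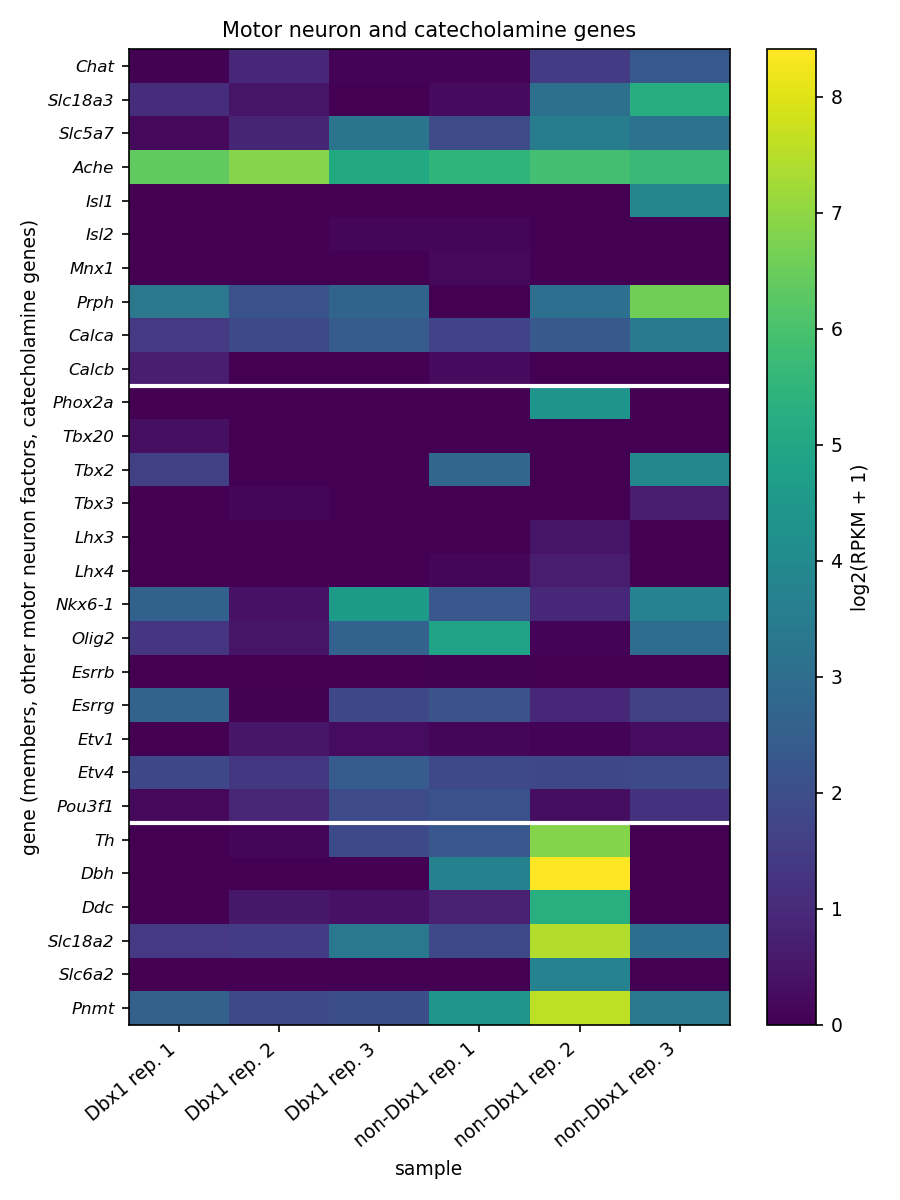
Level as log2(RPKM + 1) (colour) of the 10 genes, other motor neuron transcription factors and 6 catecholamine genes (rows, separated by white lines) in each sample (columns). Isl1 and high Prph are in non-Dbx1 replicate 3, and Phox2a, Th and Dbh are high in non-Dbx1 replicate 2.

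Isl1, Prph and Calca are also genes of peripheral sensory neurons, and Isl1 of other neurons. Markers of peripheral sensory neurons summed to an RPKM of 0.490 in non-Dbx1 replicate 3, the lowest of the 6 samples, and to 0.505 to 18 in the others. Of the 8 markers, 5 were at 0 in that sample and 4 to 6 in each of the others. Scn10a had no read in any sample and Trpv1 had 1 read in all, while Avil was highest in non-Dbx1 replicate 3, at an RPKM of 0.205 from 8 reads. In the same sample, skeletal muscle markers summed to 11.1, within the 3.36 to 23.8 of the others, and Schwann cell markers to 10.8, above the 1.20 to 6.33 of the others. Globin genes summed to 732 there, above the 89.6 to 505 of the Dbx1 samples and below the other non-Dbx1 samples, at 1198 and 13946, and endothelial markers to 0.0287, the lowest of the samples. Astrocyte markers summed to 42.5 (24.5 to 44.9 in the others), oligodendrocyte lineage markers to 48.1 (19.6 to 406), microglia markers to 13.3 (0.0175 to 10.8) and serotonergic markers to 28.8 (1.88 to 179), with Tph2, Slc6a4 and Fev at 0. The part of Schwann cells and microglia, whose sums were highest in non-Dbx1 replicate 3, in its values was not tested.

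Structural genes of large axons were present in every sample. The neurofilament genes Nefl, Nefm, Nefh and Ina summed to an RPKM of 550 in non-Dbx1 replicate 3 and 505 in Dbx1 replicate 3, and to 268 to 435 elsewhere. Nefl was highest in non-Dbx1 replicate 3, at 290, against 253 in Dbx1 replicate 3, a far smaller step than that of Prph. None of the 4 passed an FDR of 0.1 in limma, and the lowest FDR was 0.949.

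Other genes of cholinergic chemistry did not follow Chat. Of the 10 listed, 5 were highest in Dbx1 replicate 2, 5 in non-Dbx1 replicate 1 and 0 in non-Dbx1 replicate 3. The choline transporter Slc44a1 had an RPKM of 22.0 in non-Dbx1 replicate 1 and 0.0646 in non-Dbx1 replicate 3, the lowest of the samples. The 8 that could be tested had a limma FDR of at least 0.951.

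Among receptors and ligands of the calcitonin family, the calcitonin receptor Calcr was in the same sample as the Calca maximum. Calcr had an RPKM of 6.0 in non-Dbx1 replicate 3, from 499 reads, 0.0175 in non-Dbx1 replicate 1, from 1 read, and 0 in the other 4. The accessory proteins Ramp1 and Ramp3, which pair with these receptors, were detected in all samples, whereas Calcrl, the receptor that forms the calcitonin gene-related peptide receptor with Ramp1, had 12 reads in Dbx1 replicate 3, 18 in non-Dbx1 replicate 1 and 0 elsewhere. Adm, Adm2 and Iapp were at 0 in every sample. Crcp, a component of the peptide's receptor complex, had the highest mean of the list, with an RPKM between 7.69 and 21.6, and none of the 4 tested genes passed an FDR of 0.1 in limma.

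The gene lengths used by the authors bear on levels compared between genes. Recovered lengths equalled the sum of all distinct annotated exons, overlapping exons counted again, for 12175 of 25944 genes and the merged length for 8420. A gene without overlapping exons, such as Slc18a3, has the same length both ways and can fall in both counts. For Ache the summed length of 9184 bases was 1.99 times the merged length of 4623 bases, and for Calca 2.07 times. On merged length, a scale computed after seeing the data, mean RPKM over the samples was 127 in place of 64.0 for Ache and 8.68 in place of 4.18 for Calca, and 7.73 on both scales for Slc18a3. Ratios between samples of 1 gene do not depend on its length.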

How the data were processed

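RNA was sequenced from 3 Dbx1 and 3 non-Dbx1 samples of 15 neurons. The authors made and amplified cDNA, aligned single-end reads to mm10 with Tophat2, sorted them with Samtools, counted them on gene names with HTSeq without using strand, and tested the counts with DESeq2. The authors deposited RPKM, computed with exon lengths from an Ensembl annotation whose release is not given in the sources used here, without scaling between samples. Counts were not used here, so log2(RPKM + 1) was tested with limma 3.58.1 (lmFit, eBayes with trend) in R 4.3.3 for the 17614 genes with a value above 0 in 3 or more samples. The two-sided p-values were adjusted by the method of Benjamini and Hochberg, and an FDR under 0.1 counted as passed. P-values measure the spread between samples, each a pool of 15 neurons from 1 mouse. Spread between mice and spread from the choice of neurons cannot be told apart.

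Reads were recovered in Python 3.11.15 from the steps between RPKM values. The smallest whole numbers that give those values summed to at least 99.46% of the reads on genes, and the true numbers may be multiples of them. Printed reads of the 10 genes and the listed genes were multiplied where the recovered length went a whole number of times into the annotated sum of exons. Examples are Calcb (by 2) and Phox2a (by 3). Reads of the other genes ranked by pattern were not multiplied. Positions came from GENCODE vM21 on GRCm38, and upstream sequences from RefSeq, which matched 9 of the 10 genes. The members, the gene lists and the tests were chosen with earlier results of these data known. Named in the text were all 10 genes and, from the lists, those with the highest mean, an FDR under 0.1, a value in non-Dbx1 replicate 3 above every other sample by at least 2 on the log2(RPKM + 1) scale or no reads. Other listed genes named in the text were chosen after their values were seen. The limma script was checked on simulated data. The alternatives are given with their effect in the closing section. Some listed genes are not reported here.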

Additional observations from a re-analysis of the deposited data

How the results depend on the processing

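The L2FC of the 6 tested genes was recomputed under 83 combinations of gene and alternative, of which 80 kept the sign and 3 reversed it, all for Prph. The L2FC of Prph was 0.44 with a pseudocount of 0.1, 0.31 with voom on recovered reads and 1.18 without non-Dbx1 replicate 3. The gene is at 0 in non-Dbx1 replicate 1, and the cause of the sign under voom was not tested. No gene passed an FDR of 0.1 under any alternative, with FDR between 0.635 and 0.999. L2FC ranged from -2.53 to -0.42 for Chat, from -4.44 to -1.16 for Slc18a3, from -2.76 to -0.81 for Slc5a7, from 0.04 to 0.93 for Ache, from -2.11 (without non-Dbx1 replicate 1) to 1.18 for Prph and from -0.98 to -0.11 for Calca. A stricter filter, RPKM of 1 or more in 3 samples, gave no value for Chat. Size factors and quantile normalization left 5 genes highest in non-Dbx1 replicate 3, and a difference of at least 2 on the log2(RPKM + 1) scale left 3.

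Over all genes, 1 passed an FDR of 0.1 in limma. That number was 0 with a pseudocount of 0.1, 0 with genes above 0 in at least 1 sample and 0 with voom on recovered reads, where 974, 777 and 737 genes had an unadjusted p under 0.05, and 3 without the trend. Leaving out each sample in turn gave 0 to 1 genes, with 0 in limma without non-Dbx1 replicate 3, where 1026 genes had an unadjusted p under 0.05. With the replicate block the number was 0 in limma, and 819 genes had an unadjusted p under 0.05. Same-numbered samples came from different mice, and their deviations had correlations of -0.107, 0.0248 and -0.0522, so the numbers were not taken as pairing, and no sample pattern was read from the block.

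With 3 samples of 15 neurons in each group, a few neurons can set a sample's value, and 3 reads was the limit of detection. Levels of Isl2, Mnx1 and Calcb rest on 8 reads or fewer. Merged exon length, tried after seeing the data, moved mean RPKM to 127 for Ache and 8.68 for Calca.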

Other observations

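Acetylcholine receptors did not share the order of Chat. Of 21 receptor genes, 16 were above 0 in some sample, 5 were highest in non-Dbx1 replicate 1, 5 in non-Dbx1 replicate 2 and 2 in non-Dbx1 replicate 3, and 0 of the 10 tested passed an FDR of 0.1 in limma. Chrna4, a neuronal nicotinic subunit, had the highest mean of the nicotinic genes named here, with an RPKM of 11.7, 20.1 and 20.3 across Dbx1 replicates 1 to 3 and 21.1, 8.75 and 35.8 across non-Dbx1 replicates 1 to 3. Chrna5, an accessory nicotinic subunit, was above 0 only in non-Dbx1 replicate 3, at 1.05 from 53 reads. Chrm5, Chrna2, Chrnb3, Chrnd and Chrng were at 0 in every sample. The muscarinic receptor Chrm2 had an RPKM of 10.7, 15.3 and 10.7 across Dbx1 replicates 1 to 3 and 0.298, 6.76 and 5.07 across non-Dbx1 replicates 1 to 3, groups that did not overlap (L2FC 1.73, limma FDR = 0.912), as for 10.6% of the genes tested.

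Of 12 other genes of motor neuron trophic support and surface, 11 were tested and 0 passed an FDR of 0.1 in limma, 8 with a positive and 3 with a negative L2FC. Sncg, which encodes gamma-synuclein, had the highest mean, with an RPKM of 265, 264 and 208 across Dbx1 replicates 1 to 3 and 397, 678 and 691 across non-Dbx1 replicates 1 to 3. These groups did not overlap either (L2FC -1.22, limma FDR = 0.708). Ret, the receptor that responds to glial cell line-derived neurotrophic factor, had an RPKM between 3.12 and 11.2 in the samples, while its co-receptor Gfra1 was at 0.0169 in non-Dbx1 replicate 3 and between 1.99 and 7.89 in the other 5.

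The genes of the whole table with a pattern most like that of Isl1 were ranked by the difference in log2(RPKM + 1) between non-Dbx1 replicate 3 and the highest of the other 5 samples. The first 10 were Mir186, Gm25428, Snord37, Isl1, Snord89, Gm15772, Gm26490, Gm22738, Gm44246 and Gm23787. Apart from Isl1 they had 3 to 68 reads, and most are short RNAs, for which few reads give a high RPKM. Prph ranked 18, Slc18a3 110, Calca 504 and Chat 643 in the same order. Among the 21333 protein-coding genes, a ranking made after the values were seen, the first 10 were Isl1, Rom1, Sugct, Uts2b, Prph, Pgk2, Calcr, Lnp1, Fam83f and Slc6a3, and Slc18a3 ranked 33, Calca 239 and Chat 334. Uts2b, which encodes a peptide related to urotensin 2, had an RPKM of 18.7 in non-Dbx1 replicate 3 from 147 reads, 0.741 and 0.980 in non-Dbx1 replicates 1 and 2, and 0 in the Dbx1 samples.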
